A study of Mus musculus with 8 samples.

Results

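The AP-1 and immediate early genes examined here are 10 named genes, namely the FOS family members Fos, Fosb, Fosl1 and Fosl2, the JUN family members Jun, Junb and Jund, and the transcription regulator genes Egr1, Ier2 and Myc. They were given as a list of names, with earlier results of these data known. All 10 have a row among the 55487 genes of the count table, and all 10 were among the 12060 genes that had enough counts to be tested.

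FOS and JUN proteins carry a basic region and a leucine zipper, and they form the dimeric transcription factor AP-1. JUN proteins can pair with each other or with a FOS protein, whereas FOS proteins need a JUN partner to bind DNA stably. Immediate early genes are switched on within minutes of a growth factor, a stress or a loss of contact, without new protein synthesis, through serum response factor with its ETS cofactors and through CREB and MEF2, and most of their mRNAs are short-lived. In muscle stem cells (MuSCs), the satellite cells that repair muscle fibers, Fos, Jun, Egr1 and Ier2 are known to rise when the tissue is dissociated and the cells leave quiescence, and MYC is known to support growth and cell division in the myoblasts that follow.

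RNA was sequenced from MuSCs of aged C57BL/6JRj wild-type male mice. By the study's protocol, hindlimb MuSCs were sorted by FACS as lineage-negative, CD34+ and ITGA7+ cells. According to the labels, they were then cultured for 72 hours in growth medium with nicotinamide and pyridoxine (NAM/PN) or with vehicle. A total of 8 mice gave 4 pools of 2 mice, and each pool gave 1 vehicle library and 1 NAM/PN library, numbered here by pool. A legend in the study gives another number of samples for this experiment, and the labels were followed. The vehicle was 1% DMSO, and the combination was at 1 mM according to the labels, which do not divide this between NAM and PN and do not say whether the NAM/PN wells also held DMSO. The labels call the mice old, and in its proliferation assay of cultured MuSCs, which used another culture time and less DMSO than the labels give here, the supplement describes aged mice of 23 to 24 months. No untreated freshly sorted cells or earlier times were analysed here, so the values describe growing cells on the third day and not the first response to isolation.

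Library totals lay between 6472484 and 10163101 counts. Levels are given as CPM, the count divided by the normalized library size and scaled to 1000000 counts, and they were not divided by gene length because these libraries read the 3′ end of a transcript, with about 1 read per transcript. The floor of detection was set at 3 counts, or 0.280 to 0.457 CPM depending on the library. All 11 markers of MuSCs and myoblasts passed the filter, with Pax7, the transcription factor of satellite cells, at 196 ± 36.2 CPM in vehicle and 173 ± 50.3 CPM in NAM/PN (SD, n = 4). Of the 11, 10 were below 0 in log2 fold change and 0 were called by edgeR, by the block or by DESeq2, with 2 at an unadjusted p under 0.05, and they summed to 4443 to 5190 CPM in vehicle and 3926 to 4479 CPM in NAM/PN. Endothelial Flt1, Emcn and Cldn5, fibro-adipogenic Pdgfra, Lum and Dpt, and 7 of 8 leukocyte markers had 0 counts in all 8 libraries. The 8 endothelial markers summed to 3.46 to 21.2 CPM in vehicle and 9.85 to 29.6 CPM in NAM/PN, of which Egfl7, the 1 marker that passed the filter, stood at 8.31 ± 5.65 and 16.9 ± 9.18 CPM (SD, n = 4), higher with NAM/PN in 4 of 4 pools but not called (log2 fold change 1.02, edgeR adjusted p = 0.69). The 6 Schwann cell markers, of which 3 had 0 counts throughout, summed to 5.93 to 40.9 CPM and 16.9 to 43.3 CPM, mostly from Ngfr, and 0 were called. The 8 leukocyte markers summed to 0.979 to 7.58 CPM and 3.50 to 7.14 CPM, and the part of these lists in the results below was not tested. Of 10 myocyte markers, all were below 0 in log2 fold change (median -2.27) and 8 were called lower with NAM/PN, where 0.995% of all tested genes were called lower, with a summed level of 1703 to 3323 CPM in vehicle and 291 to 784 CPM in NAM/PN, and none of the 10 was at 0 in all libraries. The mural marker list was also lower in sum, at 285 to 608 CPM against 95.9 to 156 CPM, with Acta2 as its called gene. The fibro-adipogenic list summed to 6.70 to 49.3 CPM with vehicle and, through Col1a1 in the main, to 5.70 to 1115 CPM with NAM/PN. A single ribosomal RNA gene took 18.7% of the counts in vehicle 3 and 5.22% to 11.6% in the others. In bulk RNA, fewer cells of a kind and less RNA per cell cannot be told apart.

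The promoters of the member with the lowest level, Fos, and of the member with the highest level, Jun, are shown first, because they carry different response elements. Each run holds the 250 bases before the RefSeq start on GRCm38.p6, read 5′ to 3′ on the strand of the gene. Fos lies on the plus strand, and its window is chr12:85473640-85473889. Capitals mark TGACG, the core of the CRE that CREB and ATF proteins read, which begins 129 and 66 bases before the start.

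Fos: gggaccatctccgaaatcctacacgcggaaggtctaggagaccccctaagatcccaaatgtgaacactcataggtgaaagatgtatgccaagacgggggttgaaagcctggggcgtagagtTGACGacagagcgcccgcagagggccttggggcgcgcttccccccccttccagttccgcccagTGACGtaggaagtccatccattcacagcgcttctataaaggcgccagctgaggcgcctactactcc

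Jun lies on the minus strand, and its window is chr4:95052223-95052472. Capitals mark TGACATCA, which begins 45 bases before the start and differs from the CRE in its middle, and the MEF2 box CTATTTTTAG, which begins 33 bases before it.

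Jun: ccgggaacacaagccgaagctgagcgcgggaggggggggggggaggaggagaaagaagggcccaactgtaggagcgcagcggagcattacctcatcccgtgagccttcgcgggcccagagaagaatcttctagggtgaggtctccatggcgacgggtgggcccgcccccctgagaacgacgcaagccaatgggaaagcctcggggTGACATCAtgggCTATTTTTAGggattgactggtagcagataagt

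Both strands were searched for exact matches. Among 32817 promoter windows of the same length, 17.7% held TGACG, 7.49% held the CRE with any base in its middle (TGACNTCA) and 0.509% held the MEF2 box (CTA, then 4 bases of A or T, then TAG), so that the first of these is common and the last is rare. A full CRE counts under both of the first 2 motifs. A promoter window was used for 6 of the 10 genes, namely Fos, Fosb, Fosl2, Jun, Junb and Jund. Egr1, on chromosome 18, was not searched. The RefSeq window of Jund, chr8:70697489-70697738, ends well before the annotated start of the gene at 70698949 and holds 3 CpG where the window of Fos holds 15, and that of Fosl2, chr5:32136222-32136471, lies inside the annotated gene. None of the 6 windows held TGACTCA, the AP-1 element (4.46% of all windows), TGACGTCA, the full CRE (1.55%), the CArG box read by serum response factor (1.47%), the E-box CACGTG read by MYC and MAX (6.02%) or the ETS core CCGGAA (12% of all windows), which says only that these letters do not stand in these 250 bases. The EGR element GCGGGGGCG stood in the windows of Fosb and Fosl2 and in 2.57% of all windows. TGACG stood in those of Fos, Fosb and Junb.

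On the third day of culture the 10 genes spanned about 2 orders of magnitude. Averaged over the 8 libraries, Jun stood at 257 CPM and Junb at 178 CPM, followed by Fosl1 at 136 CPM. Egr1 at 60.1 CPM, Fosl2 at 44.7 CPM, Jund at 36.5 CPM and Myc at 34.5 CPM formed the middle of the order. Ier2 at 13.9 CPM, Fosb at 4.32 CPM and Fos at 2.79 CPM closed it. The ranges of neighbors in this order overlapped, except that the lowest Myc library (20.5 CPM) lay above the highest Ier2 library (19.8 CPM). Jun was above Junb in 7 of 8 libraries, Fosl1 above Egr1 in 8 of 8, and Jund above Myc in 5 of 8. The best known of the immediate early genes, Fos, was thus the least abundant, with 193 counts in all 8 libraries against 16940 for Jun.

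For none of the 10 genes did the difference between NAM/PN and vehicle pass the test. In edgeR's quasi-likelihood test, with p-values adjusted by Benjamini and Hochberg's method across the whole table, 0 of 10 passed an adjusted p of 0.05, where 1.28% of all tested genes passed (154 genes, 0.282% higher and 0.995% lower with NAM/PN). The pool as a replicate block and DESeq2 also called 0 of 10. At an unadjusted p under 0.05 without the block there were 2 of 10 (Fosl1 and Fosl2), where 9.28% of all tested genes reached that level. With the block there were 3 (Jund in addition), and the share of all tested genes was not computed for that fit. Without the block the lowest adjusted p of a member was 0.452 in edgeR's quasi-likelihood test. For all 10 genes the libraries of both conditions overlapped, whereas 7.21% of tested genes did not overlap. Of the log2 fold changes 4 were above and 6 below 0, with a median of -0.07 beside -0.0022 for all tested genes.

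These libraries bounded some of the genes far better than others. The 95% interval of the fold change lay within a 2-fold change in either direction for 5 of the 10 genes, namely Fosl1, Jun, Junb, Egr1 and Myc. It reached past a 2-fold fall for Fosl2 and Jund, past a 2-fold rise for Ier2, and past both for Fos and Fosb. The fit draws the spread of each gene toward that of other genes. The observed spread of Egr1 within a condition was at the 95.3 percentile among genes of similar level, so its bound is less sure. Each library as well as the mean of each condition is drawn by pool in the plot of the 10 genes.

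**Figure D1:**
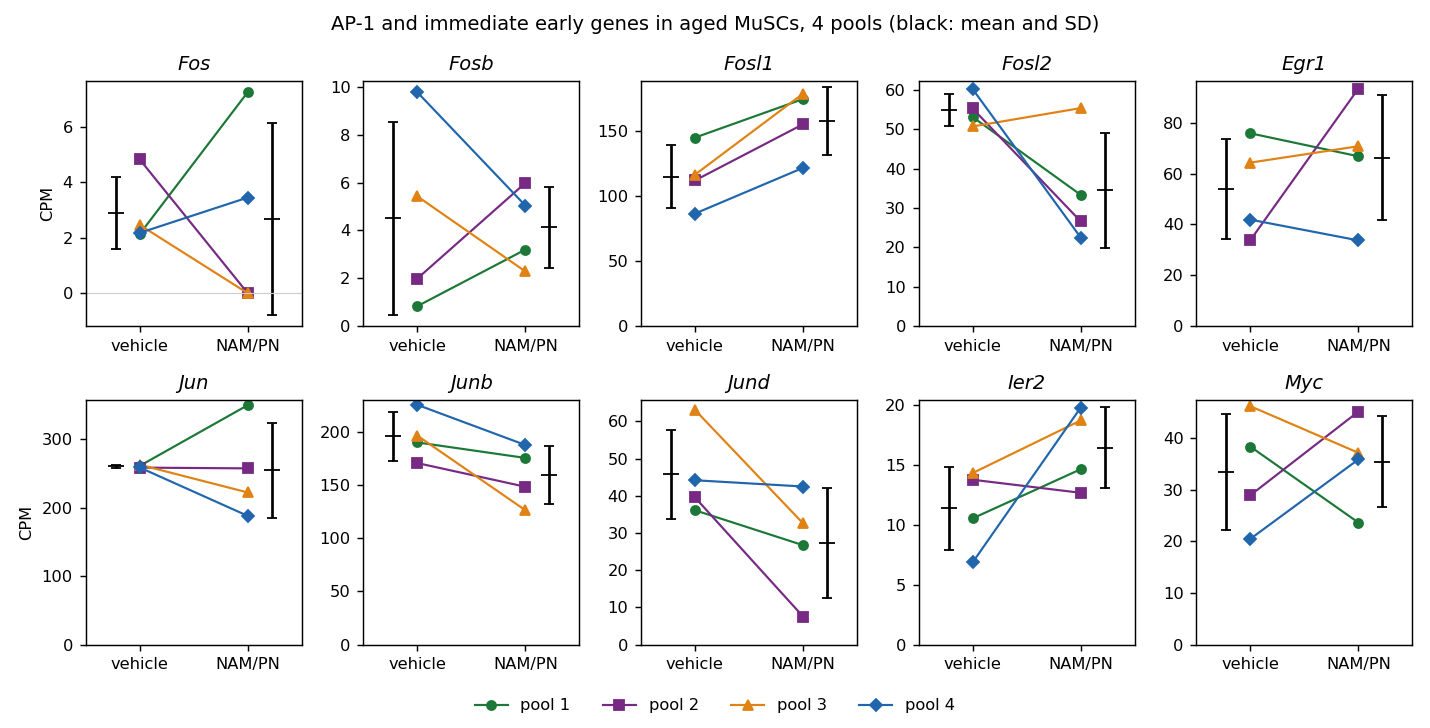
Level of each gene in CPM (vertical axis, a scale of its own for each gene) with vehicle and with NAM/PN. A colored line joins the libraries of 1 pool, and the black bars give mean and SD of 4 libraries, so that the bar of Fos reaches below 0. The lines of Fosl1 slope up and those of Junb and Jund slope down in all 4 pools, whereas the pools of the other 7 genes do not share a direction.

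Among the FOS family, Fosl1 was the most abundant. It encodes FRA1, which lacks the strong transactivation domain of FOS and is typical of growing and migrating cells. With vehicle Fosl1 stood at 145, 112, 117 and 86.6 CPM in pools 1 to 4, and with NAM/PN at 175, 155, 179 and 122 CPM. Each pool was higher with NAM/PN, by 0.27, 0.47, 0.62 and 0.49 on the log2 scale, but vehicle 1 lay above NAM/PN 4, so the conditions overlapped. The means were 115 ± 24.0 and 158 ± 26.1 CPM (SD, n = 4). NAM/PN over vehicle gave a log2 fold change of 0.45 with a standard error of 0.20 and a 95% interval of 0.035 to 0.87, and edgeR's quasi-likelihood test gave an adjusted p of 0.472. Fosl1 lies on the plus strand at chr19:5447547-5455946 and shares bases with Ccdc85b on the minus strand. The strand setting of the counting is not given in the sources used here, and without strand the reads of such pairs cannot be told apart.

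Fosl2 encodes FRA2, the other FOS-related antigen. Its vehicle libraries stood close together at 53.2, 55.3, 50.8 and 60.3 CPM, and its NAM/PN libraries spread over 33.4, 26.6, 55.4 and 22.5 CPM. Pools 1, 2 and 4 were lower with NAM/PN, whereas pool 3 was higher by 0.13 on the log2 scale and alone made the conditions overlap. The means were 54.9 ± 4.06 and 34.5 ± 14.7 CPM. The fit gave a log2 fold change of -0.67 with a standard error of 0.29 and a 95% interval of -1.28 to -0.07, with an adjusted p of 0.452 in edgeR's quasi-likelihood test. Without pool 3 it was -1.04.

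Fos, whose protein c-FOS gave the family its name, had no count in NAM/PN 2 and NAM/PN 3 and few counts elsewhere. Its counts were 18, 39, 20 and 20 with vehicle and 59, 0, 0 and 37 with NAM/PN. In CPM these were 2.13, 4.84, 2.47 and 2.18 with vehicle, and 7.26, 0, 0 and 3.46 with NAM/PN. NAM/PN thus held both the highest library and the libraries without a count, in which 0 counts allow a level of up to 0.418 CPM in pool 2 and 0.457 CPM in pool 3. The fitted log2 fold change was -0.11 with a standard error of 1.57 and a 95% interval of -3.40 to 3.18, with an adjusted p of 0.995 in edgeR's quasi-likelihood test. With the replicate block it was -2.10, with an interval of -8.33 to 4.12. Its direction turned when vehicle 2, NAM/PN 2 or NAM/PN 3 was left out, to between 0.25 and 0.30, and without pools 2 or 3.

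Fosb, a close relative of Fos, was as sparse. It stood at 0.83, 1.99, 5.43 and 9.79 CPM with vehicle and at 3.20, 5.99, 2.28 and 5.04 CPM with NAM/PN. The vehicle libraries alone covered the whole range of the gene. Its log2 fold change was -0.13 with a standard error of 1.13 and a 95% interval of -2.50 to 2.24, with an adjusted p of 0.994 in edgeR's quasi-likelihood test. The sign was not fixed, since the mean difference in log2 CPM was 0.27 and the fit with the replicate block gave 0.31. It also turned without vehicle 4, NAM/PN 3, pool 3 or pool 4.

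**Figure D2:**
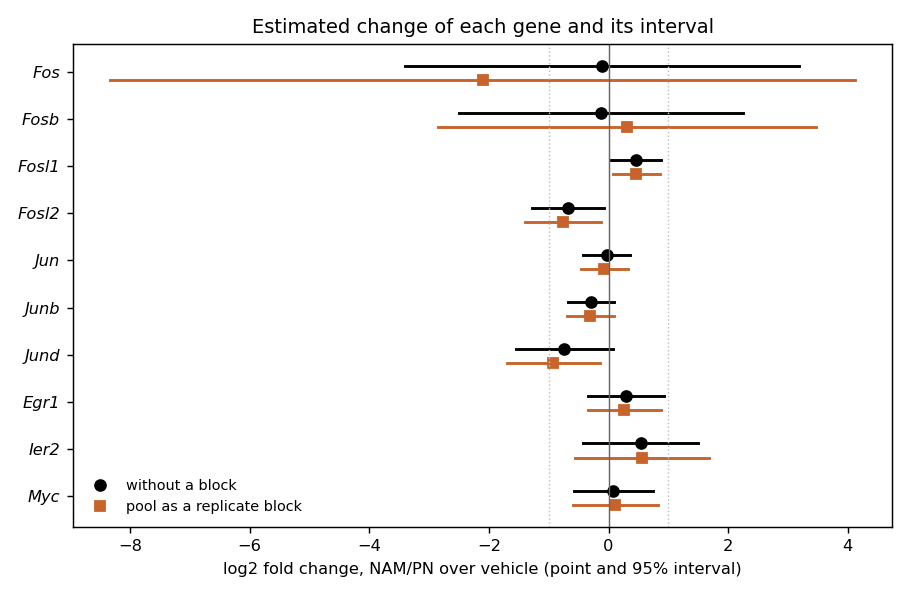
Log2 fold change of NAM/PN over vehicle for each gene (horizontal axis) with its 95% interval, in black without a block and in orange with a block for the pool. Dotted lines mark a 2-fold change. The intervals of Fos and Fosb span far more than those of the other 8 genes, and without a block those of Fosl1 and Fosl2 leave out 0.

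In the JUN family, Jun encodes c-JUN, the JUN protein with the strongest transactivation. It stood at 261, 258, 263 and 259 CPM in vehicle and at 349, 257, 222 and 188 CPM in NAM/PN. The vehicle libraries were almost level, with an SD of 2.00 CPM, which is under the 5.55 CPM that counting error alone would give on average, while the NAM/PN libraries lay both above and below them with an SD of 69.6 CPM. The means were 260 and 254 CPM. NAM/PN over vehicle gave a log2 fold change of -0.03 with a standard error of 0.19 and a 95% interval of -0.42 to 0.36, with an adjusted p of 0.990 in edgeR's quasi-likelihood test. The sign turned, at no more than 0.086, without NAM/PN 3, NAM/PN 4, pool 3 or pool 4. Jun is a gene of 1 exon at chr4:95049034-95052222 on the minus strand and shares bases with Junos on the plus strand.

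Junb, which encodes a JUN protein that can hold back c-JUN and cell division, stood at 190, 171, 197 and 226 CPM in vehicle and at 176, 149, 126 and 188 CPM in NAM/PN. All 4 pools were lower with NAM/PN, most in pool 3, by 0.64 on the log2 scale. The fit gave a log2 fold change of -0.30 with a standard error of 0.18 and a 95% interval of -0.67 to 0.084, with an adjusted p of 0.728 in edgeR's quasi-likelihood test. Junb lies at chr8:84974484-84978718 on the minus strand and overlaps Prdx2 on the plus strand.

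Jund, the JUN gene that is usually present in resting cells, stood at 36.1, 39.6, 63.1 and 44.2 CPM with vehicle and at 26.7, 7.52, 32.6 and 42.5 CPM with NAM/PN. It was lower with NAM/PN in all 4 pools, by 2.36 on the log2 scale in pool 2 and by only 0.056 in pool 4. Its log2 fold change was -0.74 with a standard error of 0.39 and a 95% interval of -1.56 to 0.075, with an adjusted p of 0.619 in edgeR's quasi-likelihood test. The spread of Jund between libraries of a condition was at the 98.3 percentile among tested genes of similar level. Jund lies at chr8:70698949-70700616 on the plus strand and overlaps Gm11175 on the minus strand. Fosl1, Junb and Jund were thus the 3 of 10 genes with the same direction in all 4 pools, where 19.2% of tested genes had 1 direction throughout.

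Since FOS and JUN proteins work as pairs, the make-up of each family was also described, as the share of each gene in the summed counts of its family. This contrast was noticed after the values were seen and was not tested. Fosl1 held 54.5% to 72.1% of the FOS family in the vehicle libraries and 75.6% to 82.7% in the NAM/PN libraries, with means of 64.4% ± 7.34 and 79.5% ± 2.90 (SD, n = 4). Fosl2 held 26.4% to 37.9% with vehicle and 14.1% to 23.4% with NAM/PN. These shares did not overlap between conditions, although the level of each gene did, and they count as 1 observation because both genes together made up most of the family, so that 1 share falls as the other rises. No share of non-overlap over other gene pairs was computed to set beside it, and for single gene levels 7.21% of the tested genes did not overlap. The summed level of the family was 177 ± 17.6 CPM in vehicle and 199 ± 36.8 CPM in NAM/PN, and its range of 159 to 201 CPM with vehicle overlapped the 153 to 237 CPM with NAM/PN.

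The JUN family was made of Jun by 52.0% ± 2.85 with vehicle and 57.2% ± 8.46 with NAM/PN, of Junb by 39.0% ± 2.71 and 36.5% ± 5.89, and of Jund by 9.07% ± 2.06 and 6.34% ± 3.75. These shares overlapped for all 3 genes. The family summed to 502 ± 28.5 CPM in vehicle and 441 ± 75.7 CPM in NAM/PN. JUN family transcripts outnumbered FOS family transcripts in every library, by 2.42, 2.69, 2.98 and 3.33 times with vehicle and by 2.52, 2.20, 1.61 and 2.73 times with NAM/PN. The ratio was lower with NAM/PN in pools 2, 3 and 4 and higher in pool 1.

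**Figure D3:**
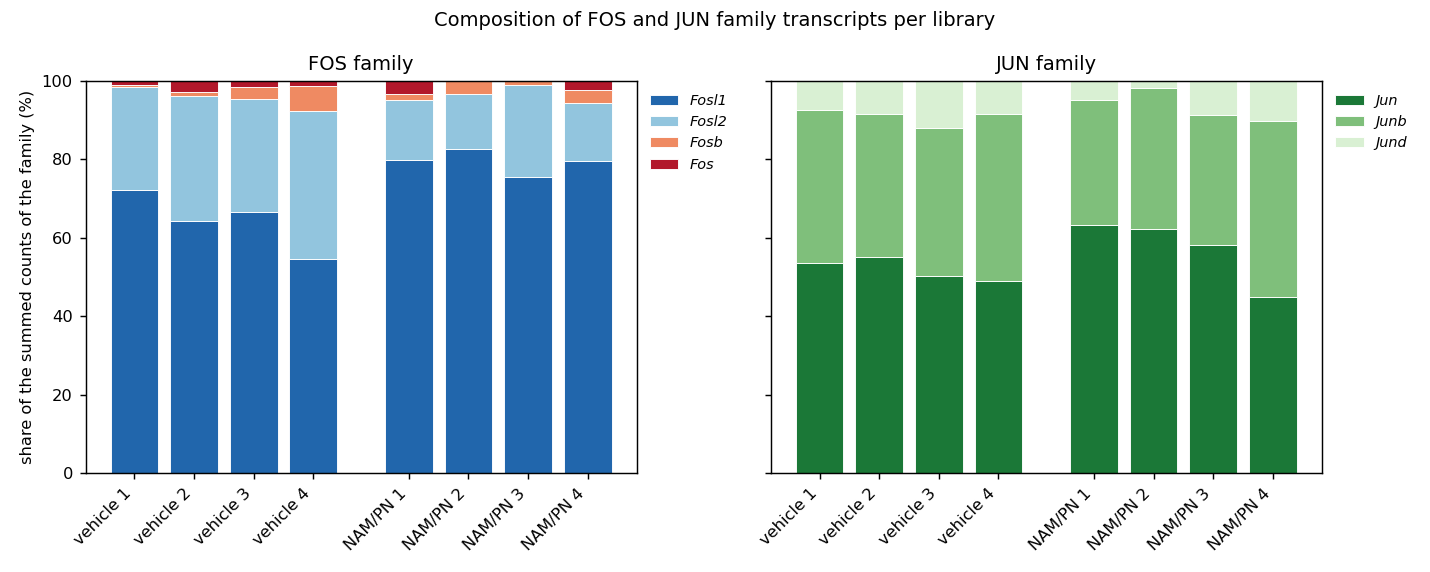
Share of each gene in the summed counts of the FOS family (left) and of the JUN family (right), in percent, 1 bar per library. The Fosl1 segment is at most 72.1% with vehicle and at least 75.6% with NAM/PN, while the JUN segments overlap between conditions.

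Egr1 encodes a zinc finger protein that binds GC-rich DNA and is among the fastest genes to answer serum. It stood at 75.9, 33.7, 64.3 and 41.9 CPM with vehicle and at 66.8, 93.5, 70.8 and 33.7 CPM with NAM/PN. Pool 2 moved from the lowest vehicle value to the highest of all libraries, whereas the other pools stayed within 0.31 on the log2 scale. NAM/PN over vehicle gave a log2 fold change of 0.29 with a standard error of 0.31 and a 95% interval of -0.35 to 0.93, with an adjusted p of 0.896 in edgeR's quasi-likelihood test. Without pool 2 it was -0.090. The spread of Egr1 within a condition was at the 95.3 percentile among genes of similar level.

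Ier2, an immediate early gene whose small nuclear protein is less well understood, stood at 10.5, 13.8, 14.3 and 6.86 CPM with vehicle and at 14.6, 12.7, 18.7 and 19.8 CPM with NAM/PN. It was higher with NAM/PN in pools 1, 3 and 4, most in pool 4, where the lowest vehicle library met the highest NAM/PN library. The fit gave a log2 fold change of 0.53 with a standard error of 0.46 and a 95% interval of -0.42 to 1.49, with an adjusted p of 0.852 in edgeR's quasi-likelihood test. In contrast to Jund and Egr1, Ier2 varied little within a condition, at the 7.21 percentile of genes of similar level.

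Myc, which encodes the transcription factor that pairs with MAX and drives ribosome production and growth, stood at 38.4, 28.9, 46.2 and 20.5 CPM with vehicle and at 23.6, 45.1, 37.2 and 35.9 CPM with NAM/PN. Pools 2 and 4 were higher and pools 1 and 3 lower with NAM/PN. Its log2 fold change was 0.08 with a standard error of 0.32 and a 95% interval of -0.58 to 0.75, with an adjusted p of 0.986 in edgeR's quasi-likelihood test. It turned below 0 without vehicle 4, NAM/PN 2, pool 2 or pool 4. A change of Myc by 2-fold in either direction therefore lay outside the interval, but a smaller change could not be told from none.

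The genes with the pattern most like each of 4 genes were sought among the tested genes that averaged 3 or more in log2 CPM (9211 candidates for Jun, Egr1 and Myc and 9212 for Fos), by the root mean square difference of log2 CPM centered per gene over the 8 libraries. For Jun these were Jade1 (0.085), Nufip2 (0.092) and Ldhb (0.107), and for Egr1 they were Apmap (0.195), Zbtb21 (0.228) and Dalrd3 (0.236). Kansl1 (0.195), Zfp91 (0.198) and Bag4 (0.200) came nearest to Myc. Nr1d1 (0.648) and Gm26782 (0.802) came nearest to Fos. These distances go with the spread of each gene around its own mean over the 8 libraries, a root mean square of 1.77 for Fos, 0.235 for Jun, 0.522 for Egr1 and 0.396 for Myc. The nearest other member stood farther off, as Junb differed from Jun by 0.311, and Fosl1 from Egr1 by 0.383 and from Myc by 0.419. It was sought among far fewer genes, so this order does not show whether the members share a pattern. The median distance over all candidates was 0.483 for Jun, 0.674 for Egr1 and 0.584 for Myc.

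Genes that act with the 10 members were read from lists of known pathway genes. In each list the calls are set against the 1.28% of all tested genes that passed the same test, and no list was tested as a set. Among partners of FOS and JUN and other AP-1 proteins with a basic leucine zipper, 12 of 17 genes were tested, and 1 was called. This was Maf, a large MAF transcription factor, which fell from 86.3 ± 11.5 to 23.7 ± 9.49 CPM (log2 fold change -1.86, standard error 0.28, adjusted p = 0.000928 by edgeR). The other 11 did not pass, and Jdp2, which represses AP-1 sites, stood at 71.1 ± 6.21 and 51.3 ± 7.31 CPM (log2 fold change -0.47, adjusted p = 0.50 by edgeR). The list had 3 genes above and 9 below 0, with a median log2 fold change of -0.30. Atf3, an immediate early partner of JUN, had 0 counts in all libraries, as had Batf, Batf2 and Nrl.

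Upstream of the members, 0 of 21 genes for serum response factor, its cofactors and the kinases of the ERK, JNK and p38 cascades were called by edgeR, also with the block and with DESeq2, and 0 reached an unadjusted p under 0.05. Their median log2 fold change was 0.06, with 12 above and 9 below 0. The pair with the smallest p were Elk3, an ETS cofactor at 50.6 ± 6.82 and 36.7 ± 6.82 CPM (adjusted p = 0.655 by edgeR), and Rps6ka1, a kinase downstream of ERK at 6.27 ± 2.28 and 13.7 ± 6.91 CPM (adjusted p = 0.676 by edgeR). Serum response factor itself, Srf, stood at 29.0 CPM in vehicle and 30.6 CPM in NAM/PN. Srf and Creb1, on which the promoters of immediate early genes depend, were among the genes not called.

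Of the EGR family, Egr1 was the single member that passed the filter, while Egr4 and Wt1 had 0 counts in all libraries. The EGR corepressors Nab1 (41.6 ± 7.12 and 37.2 ± 5.31 CPM) and Nab2 (26.1 ± 4.65 and 28.4 ± 11.8 CPM) were not called, with adjusted p of 0.956 and 0.979 by edgeR, and neither had an unadjusted p under 0.05. Among the other early transcription factors and regulators of the IER, NR4A and KLF families, 19 of 21 were tested and 0 were called by edgeR, also with the block and DESeq2, although 6 had an unadjusted p under 0.05. Their log2 fold changes were above 0 for 8 and below 0 for 11, with a median of -0.27. Klf4 (42.1 ± 18.7 and 15.9 ± 9.23 CPM, adjusted p = 0.144 by edgeR) and Klf9 (70.4 ± 13.5 and 37.3 ± 12.8 CPM, adjusted p = 0.158 by edgeR), zinc finger genes linked to differentiation and to quiescence, had the smallest p. Of the 6, Klf4, Klf9, Klf6 and Btg2 were lower with NAM/PN, while Nr4a2 (30.2 and 53.1 CPM) and Ier3 (22.0 and 43.9 CPM) were higher. Nr4a1, a nuclear receptor gene that is induced as fast as Fos, stood at only 3.43 CPM in vehicle and 0.961 CPM in NAM/PN.

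Among immediate early genes for other proteins, 32 of 35 were tested and 2 were called, both lower. Plk2, a polo-like kinase gene induced by serum, fell from 78.5 ± 17.5 to 32.9 ± 13.2 CPM (log2 fold change -1.26, standard error 0.30, adjusted p = 0.0422 by edgeR). Sik1, a kinase gene induced by cAMP that acts on CREB cofactors and class II histone deacetylases, fell from 49.6 ± 12.3 to 17.7 ± 7.55 CPM (log2 fold change -1.48, standard error 0.35, adjusted p = 0.0422 by edgeR). Dusp5, a phosphatase gene that limits nuclear ERK, was named after its values were seen. It stood at 29.6 and 69.9 CPM, with an adjusted p of 0.0557 by edgeR, or 0.0229 with the replicate block and 0.0207 by DESeq2. The calls of Plk2 and Sik1 were lost in 11 and 12 of 20 alternatives, among them leaving out any pool. They were lost without any single library too, other than vehicle 3 or NAM/PN 2 for Plk2 and NAM/PN 4 for Sik1. The list held 14 genes above and 18 below 0, with a median of -0.22.

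Among known targets of AP-1, 19 of 25 genes were tested and 4 were called by edgeR, all lower (21.1%, beside 0.995% of all tested genes). With the replicate block 3 were called, and with DESeq2 6, to which it added Timp1 as higher and Mmp9 as lower. Of the 4, 3 are described here. Mmp14, a membrane-bound metalloproteinase, fell from 65.5 ± 10.8 to 20.7 ± 5.92 CPM (log2 fold change -1.67, adjusted p = 0.00359 by edgeR). Its substrate Mmp2, a gelatinase, fell from 24.1 ± 11.3 to 3.18 ± 2.15 CPM (-2.92, adjusted p = 0.0106 by edgeR).

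Hmox1, heme oxygenase 1, fell from 148 ± 37.9 to 78.8 ± 17.2 CPM (-0.91, adjusted p = 0.0459 by edgeR), and this call was lost with the replicate block (0.0552). It was also lost without any of the 8 libraries other than vehicle 1 and without any pool. Mmp14 lost its call without pool 2, and Mmp2 without vehicle 1, vehicle 4 or pools 1, 2 or 4. With limma's voomWithQualityWeights and an estimated correlation within pools, Mmp2 (adjusted p = 0.0757) and Hmox1 (adjusted p = 0.0518) lost theirs as well. The whole list held 7 genes above and 12 below 0 with a median of -0.11. Cyclin D1 (Ccnd1), which AP-1 is known to raise in dividing cells, stood at 1818 and 1790 CPM, and Timp1, an inhibitor of metalloproteinases, at 125 and 189 CPM and higher in 4 of 4 pools (adjusted p = 0.103 by edgeR, 0.162 with the replicate block and 0.0146 by DESeq2). Mmp9, another gelatinase gene, had a log2 fold change of -4.12 (adjusted p = 0.230 by edgeR and 0.0282 by DESeq2). The 8 called myocyte markers and Acta2 fell with the same treatment, and their part in the values of the called genes was not tested.

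Of the MAX network, 15 of 16 genes were tested and 1 was called. Mycl, the L-MYC gene, fell from 35.7 ± 11.1 to 7.01 ± 3.78 CPM (log2 fold change -2.36, standard error 0.45, adjusted p = 0.00883 by edgeR), a call that was lost without vehicle 1, vehicle 4 or pools 1, 2 or 4. Mycn, the third MYC gene, did not pass the filter and lay between 0 and 5.56 CPM with vehicle, with 0 counts with NAM/PN. Mycbp, which encodes a MYC binding protein, stood at 82.9 ± 13.7 and 52.8 ± 8.63 CPM (adjusted p = 0.236 by edgeR). With vehicle Myc and Mycl had similar counts per transcript end, at 33.5 and 35.7 CPM, and with NAM/PN the mean of Myc was 35.5 CPM.

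None of the 32 known targets of MYC was called by edgeR, also with the block and DESeq2, and 6 had an unadjusted p under 0.05. Of these genes 25 were above and 7 below 0, with a median log2 fold change of 0.15 beside -0.0022 for all tested genes. The smallest p were those of Shmt1, an enzyme of folate metabolism at 57.5 ± 22.6 and 100.4 ± 14.0 CPM (adjusted p = 0.157 by edgeR), and of Npm1, the nucleolar protein nucleophosmin at 775 ± 58.6 and 994 ± 80.5 CPM (adjusted p = 0.360 by edgeR). Npm1 did not overlap between conditions, and Shmt1 did. Ribosome production and nucleolar genes make up most of this list.

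Heat shock genes, which often rise with Fos and Jun when muscle is dissociated, were read as a further list. Of 11 genes tested 0 were called by edgeR, 0 with the block and 1 by DESeq2, and 2 had an unadjusted p under 0.05, with 6 log2 fold changes above and 5 below 0 and a median of 0.06. The gene that DESeq2 called was Hspa8, the constitutive HSP70, at 252 ± 38.2 and 397 ± 49.7 CPM (adjusted p = 0.0651 by edgeR and 0.00341 by DESeq2). The inducible genes Hspa1a and Hspa1b stood at 3.02 and 12.6 CPM with vehicle and at 2.44 and 5.41 CPM with NAM/PN. Hspe1, a mitochondrial cochaperonin, stood at 141 ± 30.1 and 198 ± 42.6 CPM (adjusted p = 0.402 by edgeR).

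**Figure D4:**
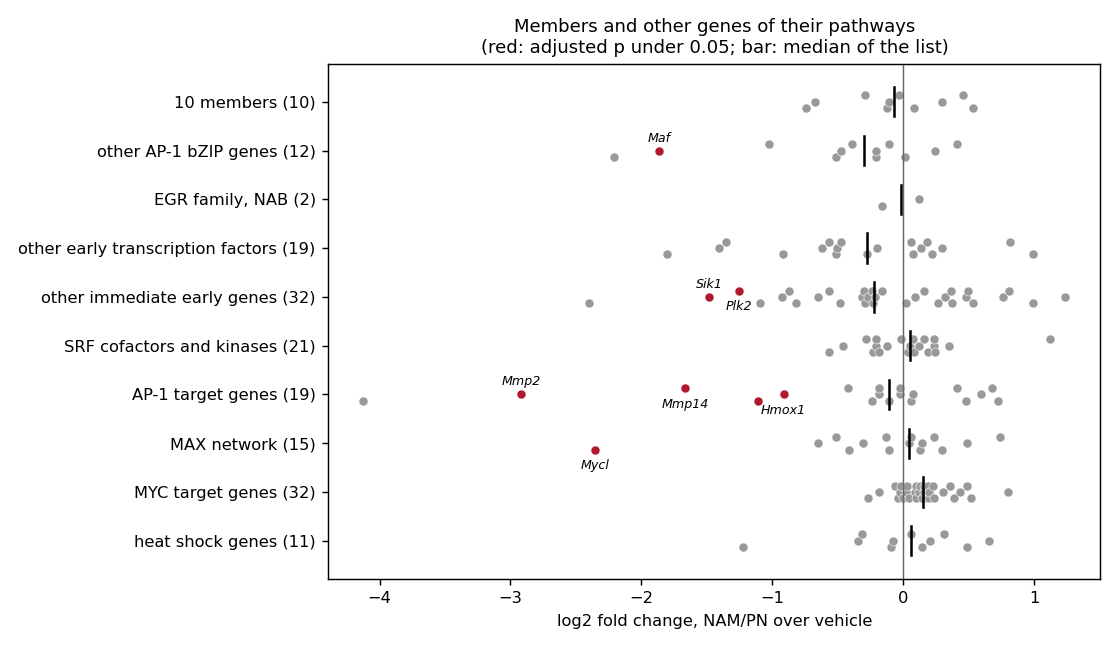
Log2 fold change of NAM/PN over vehicle (horizontal axis) for the 10 genes and the tested genes of each list, 1 point per gene, with the number tested in parentheses. Red points are genes with an adjusted p under 0.05 in edgeR's quasi-likelihood test and black bars are medians. The 10 members lie between -0.74 and 0.53, and all 8 red genes, of which 7 carry their name, lie below 0.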

How the data were processed

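Aged MuSCs of 4 pools were sequenced with vehicle and with NAM/PN (8 libraries) by QuantSeq 3′ chemistry. The deposited values are raw read counts for each gene. According to the supplement the authors used Bcl2FastQ for demultiplexing, casava for fastq files, RNASTAR for alignment (to GRCm38) and htseq-count for counting. The submitters' processing notes list HTSeq 2.16.2. The annotation release and the handling of strand and of multi-mapping reads are not given in the sources used here. Counts were filtered with filterByExpr (minimum count 10, minimum total 15), scaled with TMM factors and compared in edgeR's quasi-likelihood test, adjusted by Benjamini and Hochberg's method across the 12060 tested genes (threshold 0.05). Versions were R 4.3.3, edgeR 4.0.16, DESeq2 1.42.0 and limma 3.58.1. Log2 CPM used a prior count of 2. Symbols and positions came from GENCODE M21, which held 55227 of 55487 identifiers, and promoters from RefSeq on GRCm38.p6.

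The pool in the labels pairs the libraries, since both came from the same mice. Deviations from the condition means correlated by -0.011, 0.014, -0.033 and 0.031 within the 4 pools, and the pool was used as a block in an alternative. The members and lists were chosen with earlier results of these data known, and the motifs TGACNTCA, TGACG and MEF2 after the windows were seen. Named genes are the 10 members, the called genes of each list or else those with the smallest p until 2 are named, the 3 nearest patterns of Fos, Jun, Egr1 and Myc, and the defining markers. Of these, 2 genes are not reported here. Ccnd1, Timp1, Mmp9, Dusp5, Srf, Creb1, Nr4a1, Nr4a2, Ier3, Klf6, Btg2, Mycn, Atf3, Batf, Batf2, Nrl, Egr4, Wt1, Hspa1a and Hspa1b were named after their values were seen. Tests were tried on simulated data. Alternatives were the block, DESeq2, its size factors in edgeR, no filter, voomWithQualityWeights with duplicateCorrelation, a robust fit, thinned counts, no ribosomal RNA and mitochondrial genes, a prior count of 0.5, a threshold of 0.10, and each library and pool left out. Intervals from the fit rest on a spread between libraries that edgeR moderates across genes. They do not show the spread of a gene such as Egr1 or Jund alone. Floors cover counting error only. A comparison of leucine zippers was not made.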

Additional observations from a re-analysis of the deposited data

Results flagged for a closer look

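In groups of 4 libraries, a value was singled out when its gap to the nearest other library, divided by the range of the group, was over Dixon's critical value for 4 values. Of 74 groups 4 met this, where chance alone gives about 1 in 20, or 3.7. Fos stood at 4.84 CPM in vehicle 2, against 2.13 to 2.47 CPM in the other vehicle libraries. Mmp14 stood at 11.9 CPM in NAM/PN 4, against 23.1 to 24.5 CPM in the other NAM/PN libraries. Klf9 stood at 18.1 CPM in NAM/PN 4, against 42.4 to 44.5 CPM. Fosl2 made up 23.4% of the FOS family in NAM/PN 3, against 14.1% to 15.3% in the other NAM/PN libraries.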

How the results depend on the processing

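None of the 10 genes was called under any of the 20 alternative fits or the looser threshold, and the lowest adjusted p among them was 0.116 (Fosl1, limma's voomWithQualityWeights). Fosl1 (0.33 to 0.59), Fosl2 (-1.04 to -0.47), Junb (-0.38 to -0.20), Jund (-1.10 to -0.43) and Ier2 (0.25 to 0.75) kept the direction of their log2 fold change throughout. Of 200 alternative values of members 22 turned direction, and the cause was not tested. With the replicate block Fosb was 0.31. With voomWithQualityWeights and duplicateCorrelation Fosb was 0.17 and Jun 0.0096, and without a turn of direction Fos was -2.76 and Egr1 0.56, beside -0.11 and 0.29 in the edgeR comparison. With counts thinned to the smallest library Myc was -0.030. With a library or pool left out, the ranges were -1.43 to 0.66 for Fos, -0.61 to 0.58 for Fosb, -0.23 to 0.086 for Jun, -0.090 to 0.51 for Egr1, -0.12 to 0.30 for Myc and -0.14 to 0.32 for Nab2.

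The number of genes called, 154, was 156 with the replicate block. The block ended the call of Hmox1 and added calls for Dusp5 and for the myocyte marker Actc1 (9 of 10 myocyte markers called against 8). It changed no other call of a named gene. DESeq2 called 289 genes (with 1 heat shock gene against 0, 6 AP-1 targets against 4 and 3 immediate early genes for other proteins against 2), the fit with no filter 366, voomWithQualityWeights 232 and the threshold of 0.10 gave 244. With a library or pool left out the number was 42 to 177, and it fell most without vehicle 2 (80), vehicle 4 (87), NAM/PN 1 (92) or pools 1 (65), 2 (42) or 4 (94). Maf kept its call in all alternatives. The calls were lost in 13 of 20 for Hmox1, 12 for Sik1, 11 for Plk2, 6 for Mmp2, 5 for Mycl and 1 for Mmp14. Klf4 and Klf9 passed with no filter, Shmt1 with no filter, with voomWithQualityWeights and without vehicle 1, and Hspa8 with DESeq2, no filter, voomWithQualityWeights and the robust fit. Fos and Fosb could not be bounded within a 2-fold change in either direction, and their spread between libraries was above counting error.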

Other observations

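Jun and Junb had the same number of counts, 2011, in NAM/PN 4, the single library in which Jun was not above Junb. In NAM/PN 1 Jun, Fos and the JUN family sum (552 CPM) were all at their highest, while Fosb, Jund and Junb were not. NAM/PN 2 held the lowest Jund (7.52 CPM) and no Fos count together with the highest Egr1 (93.5 CPM).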
